A study of Mus musculus with 8 samples.

Results

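RNA levels of angiogenic factors were examined in cultured mouse retinal astrocytes (AC). The set comprised 10 genes chosen by symbol, namely Vegfa, Vegfb, Vegfc, Angpt1, Angpt2, Angptl2, Angptl4, Edn1, Hif1a and Epas1, of 13575 genes listed in all. A value was given for 9 of them, and Angptl4 was not measured. Libraries were made from 4 Cyp1b1+/+ (wild-type) AC samples and from 4 AC samples labelled Cyp1b1-/-, which carry a global deficiency of the cytochrome P450 enzyme CYP1B1 by label. The AC of both genotypes came from pooled retinas of a litter of 4-week-old mice of mixed gender, were depleted of endothelial cells with magnetic beads carrying an antibody against CD31, and were grown in serum with heparin, endothelial growth supplement and interferon-γ. The strain entry was C57BL/6 for every Cyp1b1+/+ library and C57BL/7, C57BL/8, C57BL/9 and C57BL/9 for replicates 1 to 4 labelled Cyp1b1-/-, and these entries were not used. The origin of the replicates (separate cultures, animals or repeats of 1 culture) was not given in the sources used here, so each p-value measures a spread between samples that may be technical.

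In the developing retina, AC spread ahead of the vessels and provide the template on which endothelial cells grow. VEGF-A is the main attractant and mitogen for endothelial cells and acts through VEGFR2, while VEGF-C acts mainly through VEGFR3 and the role of VEGF-B in vessels is more restricted. ANGPT1 activates the endothelial receptor TIE2 and stabilizes vessels, and ANGPT2 counteracts it in many settings. Endothelin-1, the product of Edn1, is a vasoconstrictor peptide that astrocytes can also release. HIF-1α, encoded by Hif1a, and HIF-2α, encoded by Epas1, are the oxygen-regulated subunits of the hypoxia-inducible factors. They are regulated largely through protein stability, which RNA levels do not show, and they bind DNA elements with an ACGTG or GCGTG core after pairing with ARNT.

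The sequences just upstream of the start sites are shown for the members whose RNA passed the test below and for Hif1a, because HIF is the textbook regulator of Vegfa and Edn1. The RefSeq set for GRCm38.p6 held a window for 6 members, Vegfa (a pair of start sites), Vegfb, Vegfc, Angptl2, Edn1 and Hif1a. Each run below is the 250 bases before a start site, 5′ to 3′ on the strand of the gene. Capitals mark the letters ACGTG or GCGTG, the forms of the HIF core, on either strand.
Vegfa, chr17:46032378-46032627, minus strand: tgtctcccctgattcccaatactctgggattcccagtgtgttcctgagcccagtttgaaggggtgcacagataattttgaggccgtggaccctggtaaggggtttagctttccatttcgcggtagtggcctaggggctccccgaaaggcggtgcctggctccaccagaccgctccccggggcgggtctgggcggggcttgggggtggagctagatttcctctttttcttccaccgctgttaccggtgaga
Vegfb, chr19:6987652-6987901, minus strand: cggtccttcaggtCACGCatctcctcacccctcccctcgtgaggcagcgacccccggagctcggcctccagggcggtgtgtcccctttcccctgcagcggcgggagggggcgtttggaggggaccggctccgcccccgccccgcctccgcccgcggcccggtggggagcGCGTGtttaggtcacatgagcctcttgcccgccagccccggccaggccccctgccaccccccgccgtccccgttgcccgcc
Angptl2, chr2:33215711-33215960, plus strand: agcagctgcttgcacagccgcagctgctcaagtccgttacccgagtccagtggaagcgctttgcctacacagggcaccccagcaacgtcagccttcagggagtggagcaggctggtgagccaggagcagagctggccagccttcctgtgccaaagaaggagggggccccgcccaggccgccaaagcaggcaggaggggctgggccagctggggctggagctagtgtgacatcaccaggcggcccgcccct
Edn1, chr13:42301226-42301475, plus strand: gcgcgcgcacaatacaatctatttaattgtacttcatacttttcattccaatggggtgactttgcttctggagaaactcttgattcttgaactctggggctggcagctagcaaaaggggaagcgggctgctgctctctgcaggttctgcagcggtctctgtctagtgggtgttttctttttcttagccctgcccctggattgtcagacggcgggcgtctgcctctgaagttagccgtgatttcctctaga
Hif1a, chr12:73907617-73907866, plus strand: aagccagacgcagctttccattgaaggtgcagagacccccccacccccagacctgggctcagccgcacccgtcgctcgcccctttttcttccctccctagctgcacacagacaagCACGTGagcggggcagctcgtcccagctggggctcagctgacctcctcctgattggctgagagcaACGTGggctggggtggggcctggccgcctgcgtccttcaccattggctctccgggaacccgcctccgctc
A core was found in 3 of the 7 windows of members, and 38.6% of the 32851 windows of all genes held at least 1. The Vegfb window held GCGTG cores that begin at -237 and -81 from the start site. In Hif1a, the palindrome at -135 was read as ACGTG on both strands, so that 3 matches stand for fewer separate places, and a further match began at -70. The Hif1a window lies inside the annotated gene (73901375 to 73947530), before an internal start site. The second Vegfa window, at chr17:46025164-46025413, lies inside the gene and not upstream of its 5′ end. It held matches at -218 and -211, and whether these fall within exons was not tested. No core was present in the printed windows of Vegfa, Angptl2 or Edn1, nor in that of Vegfc. The AP-1 motif TGANTCA was found in 0 of the 7 windows, against 6.75% of all windows. These are matches of letters within short windows, and sites further upstream lie outside them.

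The values are the normalized values given by the authors, which are read counts scaled by the trimmed mean of M-values (TMM) and rounded to whole numbers. They summed to between 19261729 and 20134745 per library, which reflects the scaling and is not a sequencing depth. Read numbers are stated in the sources used here as an average per genotype, not per library. Cyp1b1, the targeted gene, was higher rather than lower in the libraries labelled Cyp1b1-/-. Its value was 749, 829, 856 and 882 in replicates 1 to 4 of Cyp1b1+/+, against 1296, 1276, 1288 and 1368 in those labelled Cyp1b1-/- (log2 fold change 0.66, standard error [SE] 0.05, adjusted p = 3.11e-06 from limma). The RNA value of the targeted gene thus went against the label. A value per gene does not show which part of the gene was read, and the reason was not tested. Each direction below is that of the libraries as labelled. Xist, expressed from the inactive X chromosome, was 21084 to 26863 in Cyp1b1+/+ and 34 to 46 in the libraries labelled Cyp1b1-/-, and the Y-linked gene Ddx3y was 0 to 1 and 1230 to 1324. Each group thus showed the pattern of a single sex in these genes, although the paper describes mice of mixed gender. Sex-linked expression and genotype label therefore cannot be told apart.

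Replicate 2 labelled Cyp1b1-/- stood apart from the other libraries. In it, 415 genes were more than 2-fold above each of the other 3 libraries of its group, against 5 to 17 genes in each of the remaining 7 libraries. Fibroblast and mesenchymal markers, of which 4 of 9 were measured, summed to 201035 in this library, to 24550 to 27602 in the other 3 labelled Cyp1b1-/- and to 41404 to 48111 in Cyp1b1+/+. Col1a1, which encodes a chain of type I collagen, was 122121 in replicate 2 and 1643 to 1843 in the other 3. Pericyte and smooth muscle markers (5 of 11 measured) summed to 68950 in replicate 2 and 42295 to 45594 in the other 3, and neuron and photoreceptor markers (3 of 11, led by Tubb3) to 2396 and 1177 to 1218. Müller glia markers (3 of 8 measured, with Rlbp1 not among them) summed to 6345 to 6906 in Cyp1b1+/+ and to 3442 to 3673 in the libraries labelled Cyp1b1-/-. Of these, Apoe was 3.31-fold and Dkk3 2.57-fold lower, while Glul was 1604 to 1769 and 1591 to 1725. The part of these cell types in the changes of the factors was not tested. Of the 12 astrocyte markers, 7 were measured. They summed to 92569 to 99952 in Cyp1b1+/+, to 146110 in replicate 2 and to 116072 to 121418 in the other 3 labelled Cyp1b1-/-. Vim led them (74812 to 81133 in Cyp1b1+/+ and 99216 to 128380 in the libraries labelled Cyp1b1-/-). Between the same groups, Nes was lower (16847 to 18188 and 14376 to 16122) and Gja1 higher (736 to 851 and 1180 to 3124). Apart from Pax2, the remaining measured astrocyte markers overlapped between the groups. The defining markers Gfap, S100b, Aqp4 and Aldh1l1 had no value. Pax2, a transcription factor of retinal astrocytes, was 28 to 39 in Cyp1b1+/+ and 0 to 1 in the libraries labelled Cyp1b1-/-. Of the 13 endothelial markers, 5 were measured, with sums of 412 to 484 in Cyp1b1+/+ and 324 to 384 in the libraries labelled Cyp1b1-/-, and Pecam1, Cdh5 and Tek had no value. Results that rest on replicate 2 are given with and without it.

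Of the 9 measured factors, Vegfa, Angpt2, Angptl2 and Edn1 were lower in the libraries labelled Cyp1b1-/- and Vegfb was higher (limma, adjusted p under 0.05 over all 13575 genes). The remaining 4 factors, Vegfc, Angpt1, Hif1a and Epas1, did not pass. The share of members called was thus 55.6%, close to the 53.7% called over all genes (26.8% higher and 26.9% lower). Values of the groups did not overlap for 7 members, 3 higher and 4 lower, against 49.3% of all genes (24.8% higher and 24.4% lower). The median log2 fold change was -0.16 over the members and -0.00 over all genes, and -0.47 and -0.00 without replicate 2 labelled Cyp1b1-/-. Without replicate 2 labelled Cyp1b1-/-, 8 of the 9 members passed, 3 higher and 5 lower, where 56.2% of all genes passed (28.0% higher and 28.2% lower), and the groups did not overlap for the same number of members, where they did not for 55.8% of all genes (27.8% higher and 28.0% lower). With replicate 3 labelled Cyp1b1-/- left out instead, 2 members were called higher.

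**Figure D1:**
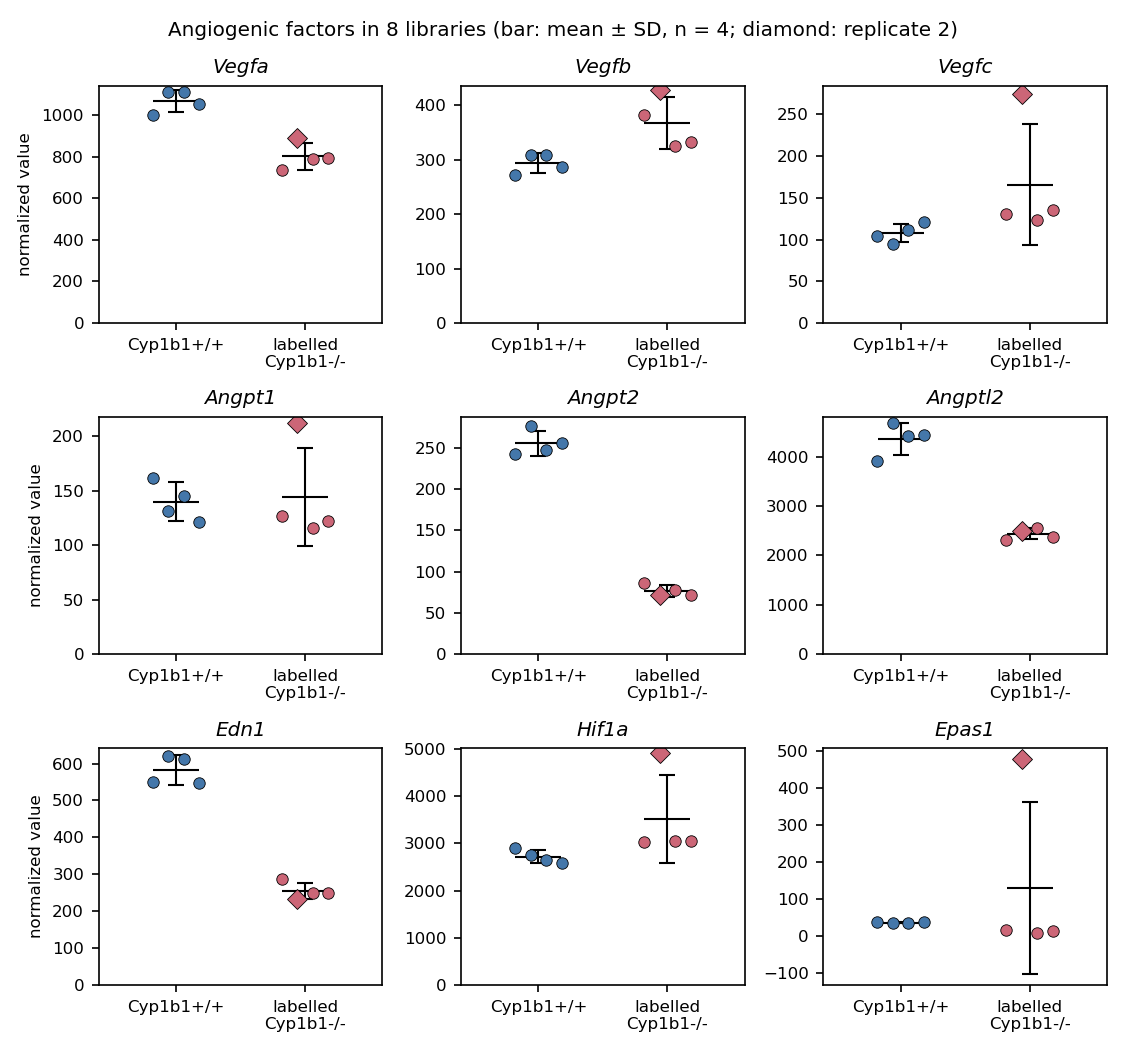
Normalized value (linear axis) of each measured factor in the 4 Cyp1b1+/+ libraries (blue) and the 4 labelled Cyp1b1-/- (red), with the mean and SD of each group as lines and replicate 2 labelled Cyp1b1-/- as a diamond. Angpt2, Angptl2, Edn1 and Vegfa lay lower in each library labelled Cyp1b1-/-, and the diamond is far above its group for Epas1 (480, against 9 to 16), so that the SD line of that panel extends below 0.

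Of the VEGF ligands, Vegfa was lower and Vegfb higher in the libraries labelled Cyp1b1-/-, and Vegfc did not pass the test. Vegfa (ENSMUSG00000023951, chromosome 17 of GRCm38, 46016993 to 46032369, minus strand) was 1000, 1109, 1108 and 1054 in replicates 1 to 4 of Cyp1b1+/+, against 736, 890, 787 and 793 in those labelled Cyp1b1-/-. Each library labelled Cyp1b1-/- was below each Cyp1b1+/+ library. The means were 1068 ± 52.0 and 801.5 ± 64.3 (SD, n = 4 each, two-sided exact permutation p = 0.0286, the lowest possible for 4 against 4). This was a 1.33-fold lower level (log2 fold change -0.42, SE 0.06, adjusted p = 0.000208 from limma).

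Vegfb (ENSMUSG00000024962, chromosome 19, 6982473 to 6987651, minus strand) moved the other way. It was 273, 309, 309 and 286 in Cyp1b1+/+, against 383, 428, 326 and 332 in the libraries labelled Cyp1b1-/-. The groups did not overlap, although replicates 3 and 4 labelled Cyp1b1-/- were close to the highest Cyp1b1+/+ value. The means were 294 ± 17.8 and 367 ± 47.9 (SD, n = 4 each), 1.24-fold higher (log2 fold change 0.31, SE 0.09, adjusted p = 0.0143 from limma).

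Vegfc (ENSMUSG00000031520, chromosome 8, 54077606 to 54187096, plus strand), the ligand of the lymphatic and tip cell receptor VEGFR3, was 104, 95, 112 and 121 in Cyp1b1+/+, against 131, 275, 123 and 135 in the libraries labelled Cyp1b1-/-. All of the latter were above all of the former, at their closest 123 against 121, and replicate 2 was 2.12 times the mean of the other 3 labelled Cyp1b1-/-. With it, the log2 fold change of 0.54 (SE 0.23, 95% interval 0.03 to 1.04) did not pass (adjusted p = 0.0701 from limma). Without it, the change was smaller, 0.27, and passed (adjusted p = 0.0425), and it also passed without replicate 3 labelled Cyp1b1-/- (0.65, adjusted p = 0.0481).

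Ratios within each library do not depend on the scaling between libraries. The ratio of Vegfa to Vegfb was 3.58 to 3.68 in Cyp1b1+/+ and 1.92 to 2.41 in the libraries labelled Cyp1b1-/-. On the log2 scale of value + 1, the difference was -0.73 (1.86 ± 0.02 against 1.13 ± 0.16, SD, n = 4 each, exact permutation p = 0.0286, 0.0381 after Benjamini-Hochberg adjustment over 4 ratios). The ratio of Vegfa to Vegfc was 8.65 to 11.6 in Cyp1b1+/+ and 3.23 to 6.35 in the libraries labelled Cyp1b1-/-, a log2 difference of -0.95 with the same exact permutation p. Replicate 2 gave the lowest Vegfa to Vegfc ratio, and the other 3 were 5.58 to 6.35.

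The angiopoietins differed from each other. Angpt2 (ENSMUSG00000031465, chromosome 8, 18690263 to 18741562, minus strand, within Mcph1 on the opposite strand with 0 shared exon bases) had the largest change of the members called. Its values were 243, 277, 247 and 256 in Cyp1b1+/+, against 86, 71, 78 and 71 in the libraries labelled Cyp1b1-/-. The groups were far apart, including replicate 2. The means were 256 ± 15.2 and 76.5 ± 7.14 (SD, n = 4 each), 3.32-fold lower (log2 fold change -1.73, SE 0.09, adjusted p = 1.63e-07 from limma).

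Angpt1 (ENSMUSG00000022309, chromosome 15, 42424723 to 42676977, minus strand) was 162, 131, 145 and 121 in Cyp1b1+/+, against 127, 212, 116 and 122 in the libraries labelled Cyp1b1-/-. The groups overlapped, and replicate 2 was the highest of all 8. The log2 fold change was 0.01 (95% interval -0.40 to 0.41, adjusted p = 0.973 from limma), and -0.19 without replicate 2 (adjusted p = 0.146). The antisense gene Gm17473 covers 14.2% of the exon bases of Angpt1, and reads of an antisense pair cannot be told apart where strand was not recorded.

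Angpt2 was the more abundant angiopoietin in each Cyp1b1+/+ library and Angpt1 in each library labelled Cyp1b1-/- by normalized value, which is not corrected for gene length. The Angpt1 to Angpt2 ratio was 0.475 to 0.668 in Cyp1b1+/+ and 1.47 to 2.96 in the libraries labelled Cyp1b1-/-. Its log2 difference of 1.74 (-0.87 ± 0.24 against 0.87 ± 0.48, SD, n = 4 each) gave an exact permutation p = 0.0286 (0.0381 adjusted over 4 ratios). The highest ratio was that of replicate 2, and the other 3 libraries labelled Cyp1b1-/- were 1.47 to 1.71.

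**Figure D2:**
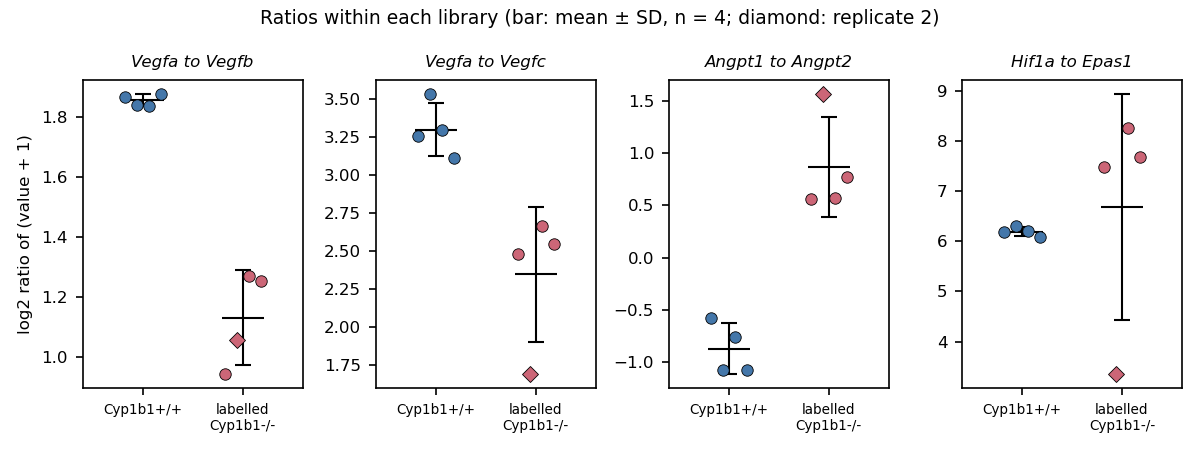
Log2 ratio of value + 1 between pairs of factors within each library (vertical axes differ between panels and do not start at 0), with group means and SDs as lines and replicate 2 labelled Cyp1b1-/- as a diamond. The Vegfa to Vegfb and Vegfa to Vegfc ratios were lower and the Angpt1 to Angpt2 ratio higher in each library labelled Cyp1b1-/-, while the diamond lies on the other side of the Cyp1b1+/+ libraries for Hif1a to Epas1 (3.35).

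Angptl2, an angiopoietin-like secreted protein that does not bind TIE2, was among the most abundant factors. Angptl2 (ENSMUSG00000004105, chromosome 2, 33216069 to 33247717, plus strand, within Ralgps1 on the opposite strand with 0 shared exon bases) was 3907, 4683, 4412 and 4439 in Cyp1b1+/+, against 2306, 2503, 2557 and 2380 in the libraries labelled Cyp1b1-/-. The groups did not overlap and were far apart, and replicate 2 was within the range of its group. The means were 4360 ± 326 and 2436.5 ± 114 (SD, n = 4 each), 1.79-fold lower (log2 fold change -0.84, SE 0.06, adjusted p = 9.89e-07 from limma). Angptl4, an inhibitor of lipoprotein lipase and a textbook HIF and PPAR target (chromosome 17, 33773750 to 33781830), was not measured. The authors left out low-abundance genes, and whether Angptl4 was among those is not stated, so no level is given.

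Edn1 (ENSMUSG00000021367, chromosome 13, 42301476 to 42307990, plus strand) was 550, 621, 613 and 547 in Cyp1b1+/+, against 287, 234, 249 and 248 in the libraries labelled Cyp1b1-/-. All libraries labelled Cyp1b1-/- were below all Cyp1b1+/+ libraries, with replicate 2 the lowest. The means were 583 ± 39.7 and 254.5 ± 22.7 (SD, n = 4 each), 2.29-fold lower (log2 fold change -1.19, SE 0.07, adjusted p = 6.00e-07 from limma). An antisense gene, Gm47118, covers 1.64% of the exon bases of Edn1.

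Both HIF subunits had their highest value in replicate 2 labelled Cyp1b1-/-. Hif1a (ENSMUSG00000021109, chromosome 12, 73901375 to 73947530, plus strand) was 2899, 2755, 2645 and 2574 in Cyp1b1+/+, against 3028, 4901, 3045 and 3056 in the libraries labelled Cyp1b1-/-. The groups did not overlap, and replicate 2 was 1.61 times the mean of the other 3. The log2 fold change was 0.34 (SE 0.14, 95% interval 0.03 to 0.64, adjusted p = 0.0628 from limma) with all libraries. Without replicate 2 it was 0.16, a 1.12-fold difference between 2718 ± 142 (SD, n = 4) and 3043 ± 14.1 (SD, n = 3), and passed (adjusted p = 0.00405 from limma). Annotated neighbours share exon bases with Hif1a, 5.60% with the antisense Gm15283 and 2.51% with Gm49321 on the same strand.

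Epas1 (ENSMUSG00000024140, chromosome 17, 86753700 to 86833410, plus strand) was 39, 34, 35 and 37 in Cyp1b1+/+, against 16, 480, 9 and 14 in the libraries labelled Cyp1b1-/-. Replicate 2 was thus 36.9 times the mean of the other 3 labelled Cyp1b1-/- and the highest of all 8, while those 3 were the lowest. The log2 fold change over all libraries was -0.16 with a wide 95% interval of -2.41 to 2.09 (adjusted p = 0.905 from limma), and it was 0.16, 0.42 and 0.22 without replicate 1, 3 or 4 labelled Cyp1b1-/-, none of which passed. Without replicate 2 it was -1.45 (SE 0.24, 2.72-fold lower, adjusted p = 0.00016 from limma). The gene starts 7.05 Mb from the start of Cyp1b1 on the same chromosome. Vegfa and Angptl4 are on this chromosome as well, with starts at -33.7 and -45.9 Mb from that of Cyp1b1.

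The Hif1a to Epas1 ratio of values was 67.8 to 78.7 in Cyp1b1+/+. It was 178 to 305 in 3 libraries labelled Cyp1b1-/- and 10.2 in replicate 2. The log2 ratio did not differ beyond the spread between the libraries (difference 0.50, exact permutation p = 0.743, 0.743 adjusted over 4 ratios), and the difference was 1.61 without replicate 2 (exact permutation p = 0.0286, the smallest that 4 against 3 can give). The collagen genes Col1a1, Col1a2 and Col3a1 were high in the same library, as was Thbs2. Gja1, which is on the astrocyte list, was also high in it (3124, against 1180 to 1232 in the other 3 labelled Cyp1b1-/-). The part of fibroblast or mesenchymal RNA in the Hif1a and Epas1 values was not tested.

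**Figure D3:**
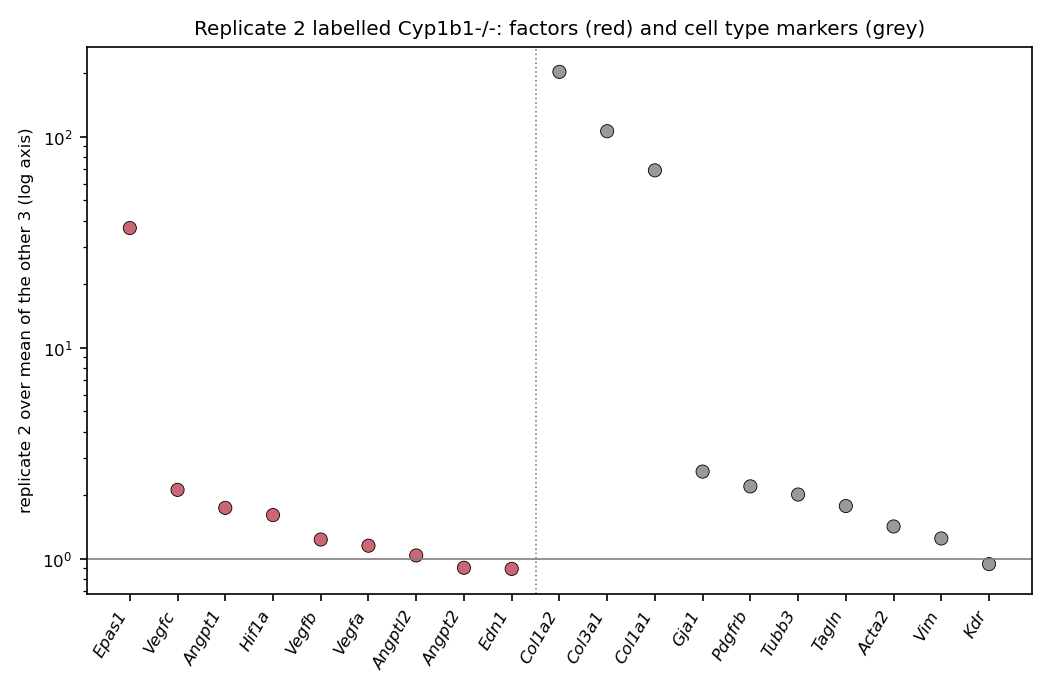
Normalized value in replicate 2 labelled Cyp1b1-/- divided by the mean of the other 3 libraries of its group (log axis), for the 9 measured factors (red) and for selected cell type markers (grey). Epas1 (36.9) lies apart from the other factors, which range from 0.895 for Edn1 to 2.12 for Vegfc, and Col1a1, Col1a2 and Col3a1 lie higher still.

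**Figure D4:**
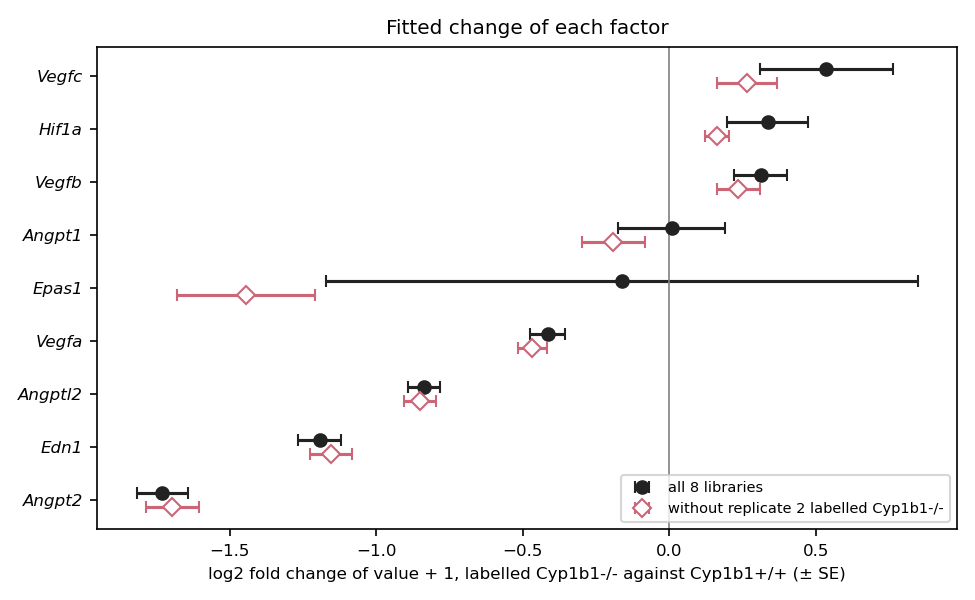
Fitted log2 fold change of value + 1 (horizontal axis, libraries labelled Cyp1b1-/- against Cyp1b1+/+) with its SE, for all 8 libraries (black) and without replicate 2 labelled Cyp1b1-/- (open red). Angpt2, Edn1, Angptl2, Vegfa and Vegfb changed little between the fits, whereas Epas1 went from -0.16 to -1.45 and Angpt1 from 0.01 to -0.19.

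Levels can be set side by side between genes only per length. Per kb of exon in Cyp1b1+/+, Angptl2 was highest (694 ± 51.8, SD, n = 4), followed by Hif1a (461 ± 24.0), Edn1 (272 ± 18.6), Vegfa (249 ± 12.1), Vegfb (183 ± 11.1), Angpt2 (69.3 ± 4.11), Vegfc (44.1 ± 4.53), Angpt1 (26.8 ± 3.42) and Epas1 (6.48 ± 0.40). The neighbours Edn1 and Vegfa did not differ beyond their spread, since Edn1 ranged from 256 to 290 and Vegfa from 233 to 259, and their order turned with the length of the longest coding transcript in place of all exons (272 and 309), a choice of length added after seeing the data. In the libraries labelled Cyp1b1-/- without replicate 2, Hif1a was highest per kb of exon (516 ± 2.39, SD, n = 3), followed by Angptl2 (384 ± 20.5), Vegfb (216 ± 19.5), Vegfa (180 ± 7.31), Edn1 (122 ± 10.4), Vegfc (52.9 ± 2.49), Angpt1 (23.4 ± 1.06), Angpt2 (21.2 ± 2.03) and Epas1 (2.33 ± 0.65). Here the neighbours Angpt1 and Angpt2 overlapped, and Angptl2 was above Hif1a by the longest transcript (723 and 644). Mean Vegfb per kb of exon was below Vegfa in Cyp1b1+/+ and above it in the libraries labelled Cyp1b1-/-, with replicate 2 (229 and 187) as without it.

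Other genes of the same pathways were followed in 8 lists. Of 113 listed symbols, 85 were measured, and 29 were higher, 29 lower and 27 not called, with a median log2 fold change of -0.01. The share called was 68.2%, where 53.7% of all genes were called (26.8% higher and 26.9% lower). Without replicate 2 labelled Cyp1b1-/-, the counts were 30, 34 and 21 (75.3% called, against 56.2% of all genes). The lists of VEGF, angiopoietin, endothelin and lipoprotein lipase genes held more lower than higher calls. Of these, the angiopoietin, endothelin and lipoprotein lipase lists held only 2 or 3 measured genes each. The lists of HIF partners, HIF targets and angiogenesis inhibitors held more higher than lower calls. For the HIF partners this was lost with equal column totals, where 2 genes were higher and 2 lower.

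Of the VEGF receptors, co-receptors and further ligands, 7 of 8 symbols were measured, 4 were lower, 1 was higher and 2 were not called. This is 71.4% called, against 53.7% of all genes, with a median log2 fold change of -0.52. Pgf, the ligand placental growth factor, fell from 49.2 ± 5.91 to 10.2 ± 1.71 (SD, n = 4 each, log2 fold change -2.16, SE 0.20, adjusted p = 9.04e-06 from limma). The ligand gene Vegfd was lower as well (-0.72, adjusted p = 1.38e-05), as were the co-receptor Nrp2 (-0.52, adjusted p = 0.00118) and Kdr, which encodes VEGFR2 (-0.40, adjusted p = 0.00139). Flt4, the gene of VEGFR3, was higher (0.33, SE 0.06, adjusted p = 0.00102). The co-receptor Nrp1 was 369, 385, 405 and 368 in Cyp1b1+/+, against 164, 498, 191 and 188 in the libraries labelled Cyp1b1-/-. Replicate 2 was its highest value of all 8, as for Epas1, and Nrp1 did not pass with all libraries (-0.71, adjusted p = 0.0607 from limma) but passed without it (-1.07, adjusted p = 4.46e-08). With replicate 2 kept, its adjusted p was just under the threshold after scaling to equal column totals (0.0446).

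Of the angiopoietin receptors and further family, 3 of 9 symbols were measured and 1 was lower (33.3% called, against 53.7% of all genes). This was Angpt4, which fell from 48.8 ± 8.10 to 14.5 ± 2.38 (SD, n = 4 each, log2 fold change -1.68, adjusted p = 5.23e-05 from limma). The count of lower genes was 2 without replicate 2 labelled Cyp1b1-/- or without Cyp1b1+/+ replicate 1, and also with equal column totals or a minimum of 10 in every library. The endothelial receptor genes Tek and Tie1 were not measured. Of the lipoprotein lipase axis on which ANGPTL4 acts, all 3 measured genes of 5 listed were lower, where 26.9% of all genes were lower. Lpl, lipoprotein lipase itself, fell from 967 ± 66.9 to 381 ± 31.4 (SD, n = 4 each, log2 fold change -1.34, SE 0.07, adjusted p = 1.90e-07 from limma), with smaller changes in endothelial lipase Lipg (-0.60) and in Lmf1 (-0.43), needed for lipase maturation.

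The endothelin list held 2 measured genes of 6, and 1 was lower (50% called, against 53.7% of all genes). Ece1 encodes an enzyme that cuts big endothelin-1 to the active peptide. It was 2908, 3380, 3433 and 3242 in Cyp1b1+/+, against 1249, 1289, 1316 and 1381 in the libraries labelled Cyp1b1-/-. The groups were far apart (log2 fold change -1.31, SE 0.05, adjusted p = 4.14e-08 from limma), so that Edn1 and Ece1 RNA were both lower. Ece2, the other measured gene of the list, was not called (log2 fold change -0.03, adjusted p = 0.766 from limma). Its means were 249 ± 20.3 in Cyp1b1+/+ and 244 ± 18.5 in the libraries labelled Cyp1b1-/- (SD, n = 4 each).

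Of the HIF partners and oxygen-sensing genes, 13 of 14 symbols were measured, 5 were higher, 1 was lower and 7 were not called. This is 46.2% called, below the 53.7% of all genes, with a median log2 fold change of 0.09. Arnt2, an alternative partner of the HIF subunits, rose from 728 ± 34.2 to 2366.5 ± 163 (SD, n = 4 each, log2 fold change 1.70, SE 0.05, adjusted p = 6.34e-09 from limma), while Arnt, the usual partner, fell by 0.25 (adjusted p = 0.000257). Rbx1, part of the ubiquitin ligase that degrades HIF subunits, was higher (0.44, adjusted p = 9.66e-05). Vhl, the recognition subunit of that ligase, and Eloc, its adaptor, were higher by small amounts (0.16, adjusted p = 0.0313, and 0.13, adjusted p = 0.0388, from limma). These last calls were close to the threshold. Vhl did not pass without replicate 1, 2 or 4 labelled Cyp1b1-/- or Cyp1b1+/+ replicate 3 or 4 (adjusted p up to 0.0904). Eloc did not pass without replicate 1 or 4 labelled Cyp1b1-/- or Cyp1b1+/+ replicate 2, 3 or 4 (adjusted p up to 0.109). Over the alternatives, the log2 fold change stayed at 0.13 to 0.18 for Vhl and 0.11 to 0.17 for Eloc. The count of higher genes was accordingly 2 without replicate 1 or 4 labelled Cyp1b1-/- or Cyp1b1+/+ replicate 3, and 3 without Cyp1b1+/+ replicate 2 or 4. The count of lower genes was 2 without replicate 2 labelled Cyp1b1-/- or Cyp1b1+/+ replicate 1.

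All 30 textbook HIF target genes were measured, 12 were higher, 8 were lower and 10 were not called. This is 66.7% called, against 53.7% of all genes, with a median log2 fold change of 0.06. Higher genes included Ndrg1, a stress-response gene (177.5 ± 9.98 to 427 ± 29.6, SD, n = 4 each, log2 fold change 1.26, SE 0.07, adjusted p = 2.52e-07 from limma), Bnip3, a mitophagy receptor (0.91), Slc16a3, a lactate exporter (0.78, adjusted p = 0.0183, and 0.0502 without Cyp1b1+/+ replicate 3), and Mxi1 (0.76). Lower genes included the glycolytic regulator Pfkfb3 (540 ± 12.6 to 312 ± 12.3, SD, n = 4 each, log2 fold change -0.79, SE 0.05, adjusted p = 4.73e-07 from limma), the transferrin receptor gene Tfrc (-0.50) and hexokinase Hk2 (-0.47). P4ha2, a collagen prolyl hydroxylase, was also lower (-0.63, adjusted p = 0.0227), but not without replicate 1, 3 or 4 labelled Cyp1b1-/- or Cyp1b1+/+ replicate 2, 3 or 4 (adjusted p up to 0.0676), nor without the trend (0.0508). Its value was 635 in replicate 2 and 307 to 347 in the other 3 labelled Cyp1b1-/-, and without replicate 2 the change was -0.87 (adjusted p = 1.40e-06 from limma).

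**Figure D5:**
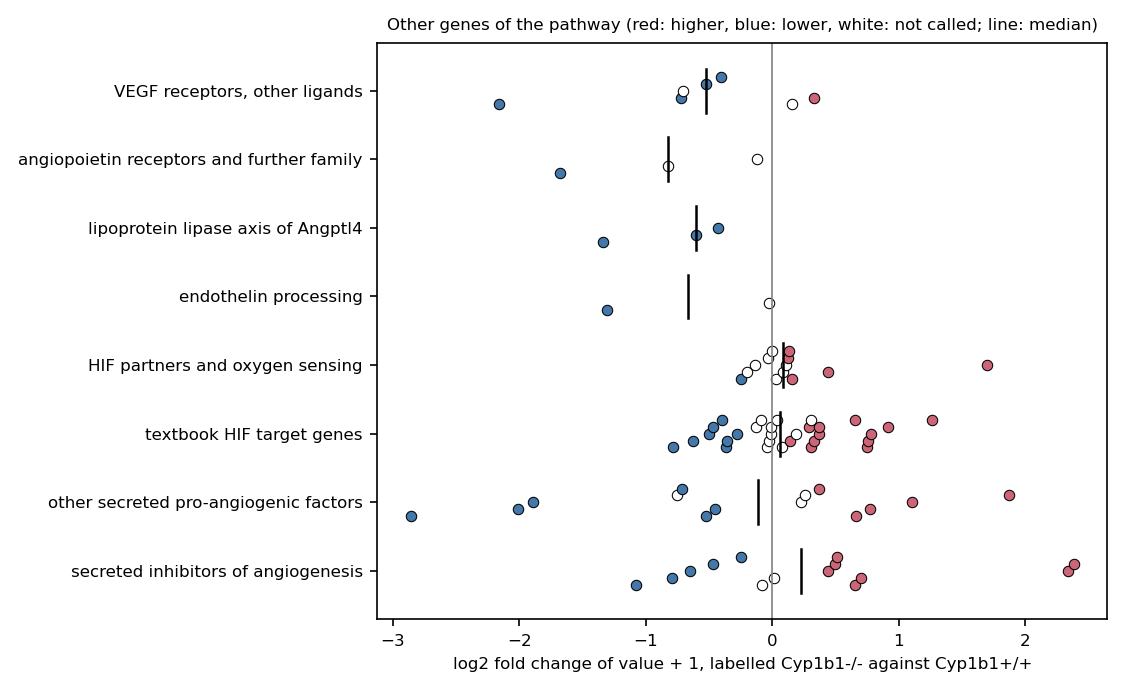
Log2 fold change of value + 1 (horizontal axis, libraries labelled Cyp1b1-/- against Cyp1b1+/+) of each measured gene of the 8 lists (points, red higher, blue lower, white not called at an adjusted p under 0.05), with the list median as a vertical line. Medians lie below 0 for the VEGF list (-0.52) and the lipoprotein lipase axis (-0.60) and near 0 for the HIF targets (0.06), whose members spread to both sides.

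Of 23 listed symbols for other secreted pro-angiogenic factors, 14 were measured, 5 were higher and 6 lower. This is 78.6% called, against 53.7% of all genes. The median log2 fold change was -0.12, and -0.46 without replicate 2 labelled Cyp1b1-/-. Cxcl12, a chemokine for endothelial and progenitor cells, rose from 1281 ± 29.1 to 2752 ± 84.6 (SD, n = 4 each, log2 fold change 1.10, SE 0.03, adjusted p = 4.49e-09 from limma). Ndp, which encodes the retinal vascular ligand norrin, was 5 to 13 in Cyp1b1+/+ and 33 to 47 in the libraries labelled Cyp1b1-/- (1.87, adjusted p = 0.000372), and Tgfb2 and Lif were higher as well (0.77 and 0.66). Ang, the gene of angiogenin, fell by 2.86 (adjusted p = 0.00111) at low values of 13 to 25 against 0 to 4. The Wnt enhancer Rspo3 (-2.01), the heparin-binding growth factor Ptn (-1.89) and the matricellular Ctgf (-0.71) were also lower. Ctgf was 6813 in replicate 2 labelled Cyp1b1-/-, above the lowest Cyp1b1+/+ value of 6357, and its change was -0.91 without that replicate.

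Of 19 secreted inhibitors of angiogenesis, 14 were measured, 7 were higher and 5 lower (median log2 fold change 0.23). This is 85.7% called, against 53.7% of all genes. Without replicate 2 labelled Cyp1b1-/-, 7 were higher and 6 lower (92.9% called, against 56.2% of all genes). Col18a1, the source of the fragment endostatin, rose from 451 ± 56.9 to 2282.5 ± 198 (SD, n = 4 each, 5.07-fold, log2 fold change 2.34, SE 0.09, adjusted p = 2.26e-08 from limma). Thbs2, an anti-angiogenic thrombospondin, was 67 to 95 in Cyp1b1+/+, 276 to 328 in 3 libraries labelled Cyp1b1-/- and 1188 in replicate 2 (log2 fold change 2.38, and 1.90 without replicate 2). Its relative Thbs1 went the other way, from 130448 ± 8889 to 62732 ± 15331 (SD, n = 4 each, -1.08, SE 0.14, adjusted p = 8.45e-05 from limma). Without replicate 2, where Thbs1 was 85568, its change was -1.24. Sema3a (0.70) and Timp3 (0.66) were higher, and Cxcl10 (-0.79), Adamts1 (-0.65) and Sema3e (-0.47) were lower.

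The genes whose log2 values were most like those of each called member over the 8 libraries were taken from the 11557 genes with a mean of at least 50. They were Pdia3, Thbs3 and Rcn1 for Vegfa (Pearson r 0.996, 0.996 and 0.994), Rnase4, Zranb2 and Ms4a4d for Angpt2 (0.999, 0.998 and 0.998), Ssr1, Emb and Tle1 for Angptl2 (0.998, 0.997 and 0.997), and Adgre5, Ms4a4d and Rnase4 for Edn1 (0.997, 0.996 and 0.995). Those for Vegfb were Lrrc41, Cox7c and Grcc10 (0.976, 0.974 and 0.968). Each r spans both groups, so it largely repeats the difference between them, and it describes these 8 libraries only.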

How the data were processed

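RNA of 4 Cyp1b1+/+ AC samples and of 4 AC samples labelled Cyp1b1-/- was sequenced as poly-A libraries. Per the submitters' processing notes and the paper's methods, the authors used bcl2fastq 2.20, STAR 2.5.3a with GRCm38.p6 and RSEM for reads per gene, left out low-abundance genes, and applied TMM normalization (edgeR 3.28.0). The deposited score of a gene is this normalized value rounded to a whole number. It is not a raw count, so counting error was not computed. The authors' fold changes and p-values, and tables of genes they had selected, were not used.

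All 13575 genes were fitted with limma 3.58.1 (R 4.3.3, mean-variance trend) on log2(value + 1), over all 8 libraries without covariates, with Benjamini-Hochberg adjustment over all genes. The added 1 understates changes of low genes. A gene was called at an adjusted p under 0.05. Ratios were compared by exact permutation. Positions and lengths are from GENCODE M21. Python 3.11.15, pandas 2.3.3, numpy 2.4.6, scipy 1.17.1 and matplotlib 3.10.9 were used, and the fit was tested on simulated data. Overlapping genes were taken from the annotation, and no source used here states that reads were counted by strand.

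The members and lists were chosen with earlier results of these data known. Named were all members, Cyp1b1, up to 4 genes per direction and list with the largest change among those called with a mean of at least 10 in a group, up to 3 markers of highest mean per list, and the 3 genes most alike each called member. Nrp1, Ece2, Pax2, Gja1, Col3a1, Notch3, Cnn1, Rlbp1, Xist, Ddx3y and markers or receptors with no value were named after their values were seen. Alternatives were pseudocounts of 0.1 and 0.5, median-ratio scaling, equal column totals, at least 10 in every library, the replicate block, no trend, and each library left out. Lengths by longest coding transcript, and levels and marker sums with replicate 2 labelled Cyp1b1-/- kept apart, were added after seeing the data.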

Additional observations from a re-analysis of the deposited data

Results flagged for a closer look

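In 106 groups of 4 values (members, ratios and named genes in each genotype), 13 had 1 library far from the other 3, and 10 of these were replicate 2 labelled Cyp1b1-/-. By Dixon's criterion at the 95% level some such gaps arise by chance, about 5% of groups. Among the members, replicate 2 labelled Cyp1b1-/- was far above its group for Vegfc (275), Angpt1 (212), Hif1a (4901) and Epas1 (480), and the Hif1a to Epas1 log2 ratio was far below (3.35). In the same library, Arnt2 (2124) was low and P4ha2 (635), Ctgf (6813), Thbs2 (1188) and Thbs1 (85568) were high. In Cyp1b1+/+ replicate 1, Kdr (191), P4ha2 (501) and Ctgf (6357) were low. The part of the fibroblast and mesenchymal markers of replicate 2 in these values was not tested.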

How the results depend on the processing

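Vegfa, Vegfb, Angpt2, Angptl2 and Edn1 kept their direction and their call in all 15 alternatives, with adjusted p from limma of 2.89e-06 to 0.00127 for Vegfa, 0.00908 to 0.0419 for Vegfb, 5.34e-09 to 2.54e-05 for Angpt2, 3.55e-08 to 3.32e-05 for Angptl2 and 1.81e-08 to 4.73e-05 for Edn1. When each library was left out in turn, the log2 fold change ranged from 0.27 to 0.65 for Vegfc, -0.19 to 0.10 for Angpt1, 0.16 to 0.40 for Hif1a and -1.45 to 0.42 for Epas1, the number of members called higher from 1 to 3, and the log2 difference of the Hif1a to Epas1 ratio from -0.024 to 1.61. Over all alternatives, adjusted p was 0.0425 to 0.157 for Vegfc, 0.00405 to 0.134 for Hif1a, 0.146 to 0.975 for Angpt1 and 0.00016 to 0.936 for Epas1. With equal column totals, Angpt1 was -0.017 in place of 0.01, and the cause was not tested. That scaling shifted the median of all genes by -0.03, the largest shift of any setting. A minimum of 10 in every library removed Epas1, which then gave no value. The count of higher HIF partners was 2 with equal column totals and 3 without the trend.

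The replicate numbers did not pair the libraries, since the deviations of same-numbered libraries correlated at -0.05 to 0.02 and not every library correlated best with its own number. With the replicate number as a block, Hif1a was 0.34 with an adjusted p of 0.0455, and 2 members were called higher, where 1 was without it. With the block, 3 of the 4 ratios reached an exact p of 0.125, the smallest that 4 pairs allow, and Hif1a to Epas1 gave 0.75. Nrp1 passed with the block (adjusted p = 0.0468), and 2 genes of the angiopoietin list were lower in place of 1, as also with equal column totals and with a minimum of 10 in every library. The values are scaled and not raw counts, so the counting error of low values such as those of Epas1 was not computed.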
